A study of Homo sapiens with 6 samples.

Results

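T24 and UMUC3 (UM-UC-3) are established human lines derived from bladder carcinoma. The comparison described here sets the 3 T24 libraries against the 3 UMUC3 libraries, whatever the knockdown did. All 6 of the 6 libraries of the series entered it, chosen by the cell line named in the labels. Each line gave 1 control library and 2 libraries after knockdown of circPTK2, a circular RNA made from the PTK2 gene. RNA was measured by sequencing. The sample titles name siRNAs numbered 1 and 2 and the design text names sh constructs, so which reagent was used is unclear. In T24 the number in the title and in the name of the data column are swapped. The knockdown libraries were kept in the comparison and knockdown was a term of the fit. Whether the 3 libraries of each line are independent cultures is not stated in the labels. The p-values therefore cover no more than the spread among these libraries, and that spread may be technical. Each line is a single cell line, and a difference between them describes these lines and not a class of bladder tumours.

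Cells of the bladder lining, the urothelium, are epithelial cells held together by desmosomes and tight junctions and filled with keratin filaments. In the luminal state they depend on the transcription factors GATA3, FOXA1 and PPARG, and in the basal state on basal keratins and TP63. Carcinoma lines can lose part of this program and take up genes of mesenchymal cells, such as VIM, which encodes the filament protein vimentin. This change is described as epithelial-mesenchymal transition (EMT). Lines also differ in the positional HOX code of the tissue they came from, in genes switched off as a block, and in genes normally restricted to testis or other organs.

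The lines differed at a large share of the genome. Of 20721 genes tested, 3890 (18.8%) were higher in T24 and 3420 (16.5%) were higher in UMUC3, 7310 (35.3%) in all. These passed an adjusted p of 0.05 in edgeR's quasi-likelihood test with Benjamini-Hochberg adjustment, and are termed called. Of 14499 protein-coding genes tested 6111 were called, a larger share than over all tested genes. With an absolute log2 difference of at least 1 as well, 2989 (14.4%) and 2338 (11.3%) were called. A gene is termed separated where every library of a line lay above every library of the other, which is 9 of 9 pairs. By that rule 5637 genes (27.2%) were separated with T24 higher and 5210 (25.1%) with UMUC3 higher, 52.3% in all. Genes both called and separated numbered 3800 (18.3%) and 3309 (16.0%), 34.3% in all. Without T24 knockdown 1 or T24 knockdown 2 the calls fell to 2471 or 2520 higher in T24 and to 2198 or 2235 higher in UMUC3. Without UMUC3 knockdown 1 or 2 the calls higher in UMUC3 fell to 2094 or 1963. In this fit 2 genes were called for knockdown. Levels are given in CPM, the counts of a gene relative to all counts of its library after scaling by TMM factors. Of the called and separated genes 4273 had at least 1 CPM in every library. In 68.27% of these the distance between the lines in the control libraries was within 0.5 log2 units of that in the knockdown libraries, and in 91.58% within 1. Where 3 values of a line are given, they are the control library followed by knockdown libraries 1 and 2. A mean ± SD is over these 3 libraries, with T24 given first, and log2 differences are T24 minus UMUC3.

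**Figure D1:**
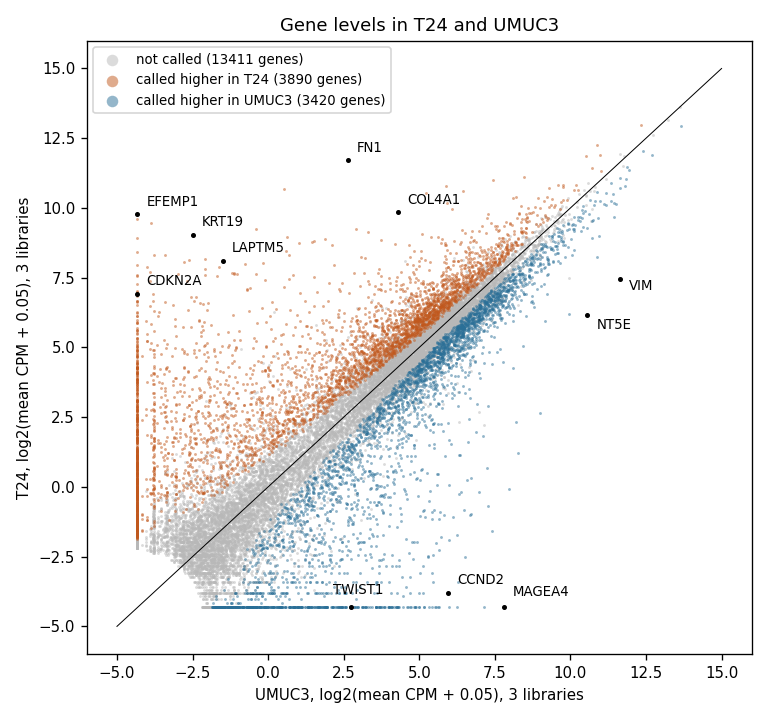
Each point is 1 of 20721 tested genes, placed by its mean level over 3 UMUC3 libraries (horizontal axis) and over 3 T24 libraries (vertical axis), both as log2(CPM + 0.05). The 3890 genes called higher in T24 lie above the diagonal and the 3420 called higher in UMUC3 below it, and the points along the left and lower edges have 0 counts in a line.

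The libraries held 65111683 to 72362436 counts each, and named genes took 55071837 to 60780176 of them. At this depth 3 counts, the limit that a count of 0 allows, correspond to 0.0493 to 0.0537 CPM in a library, for counting error only. Transcripts that carry no gene name held 14.86 to 16.1% of the counts and were left out. A gene's counts often moved between its transcripts from library to library of the same line. Genes in which over 0.5 of the counts did so in a line where they averaged at least 5 CPM are marked below as uncertain. Composition-stable genes are those with under 0.2 in both lines. Among all tested genes 33.1% of those with a shift over 0.5 were called and 34.8% of those with a shift under 0.2. In a culture, fewer cells with a transcript and less of it per cell cannot be told apart.

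The largest differences were genes with high counts in all 3 libraries of a line and none in the other. EFEMP1 (ENSG00000115380, chromosome 2, 55865967 to 55924139, minus strand), which encodes the matrix protein fibulin-3, stood at 698, 973 and 957 CPM in T24 and 0 counts in every UMUC3 library. It was at least 16790.0-fold higher in T24 when UMUC3 is set to the 3-count floor of each library. TINAGL1, a secreted matrix protein, stood at 1004, 688 and 620.0 CPM in T24 and 0 counts in every UMUC3 library (at least 14777-fold). SERPINH1, the collagen chaperone of the endoplasmic reticulum, stood at 407, 539 and 519.5 CPM in T24 and 0 counts in every UMUC3 library (at least 9363-fold). All 9 pairs of libraries were separated for these 3 genes, as for every gene named in this paragraph. The rule for names required this. The metallothionein gene MT1E (249 ± 47.7 against 0 CPM), LDOC1 (195 ± 9.11 against 0 CPM), FAM83H (188 ± 19.2 against 0 CPM) and ETFA (154 ± 2.71 against 0 CPM), a subunit of the mitochondrial electron transfer flavoprotein, also had 0 counts in UMUC3. So had CDH13, SMR3B, CDKN2A, BNC1, FST, ANXA3 and BST2, whose T24 means ran from 101 ± 5.50 CPM in BST2 to 130.1 ± 23.2 CPM in CDH13. In the other direction, MAGEA4 (ENSG00000147381, chromosome X, 151912509 to 151925170, plus strand), a cancer-testis antigen of a family with near-identical members, stood at 0 counts in every T24 library and 222, 230.4 and 216 CPM in UMUC3 (at least 4421-fold higher in UMUC3), with its UMUC3 counts uncertain between transcripts. ADD2, which encodes an adducin of the membrane skeleton, stood at 0 counts in every T24 library and 93.5, 159.9 and 174 CPM in UMUC3 (at least 2822-fold). PNMA2 (0 against 75.3 ± 11.9 CPM), PODXL2 (0 against 62.9 ± 15.3 CPM), PCDH10 (0 against 50.2 ± 35.9 CPM), DPYSL5 (0 against 48.7 ± 17.0 CPM) and UCHL1 (0 against 47.0 ± 16.7 CPM; uncertain) followed. LRFN5, a synaptic adhesion gene (0 against 45.9 ± 6.05 CPM), and NCAM2, a neural adhesion gene (0 against 35.4 ± 14.5 CPM), were at 0 in T24 as well.

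Genes were termed on in a line and off in the other where all 3 libraries of a line had at least 1 CPM and all 3 of the other under 0.1 CPM. By this rule 379 genes (1.83%) were on in T24 and 230 (1.11%) were on in UMUC3. The limit of 0.1 CPM sets these counts: with 0.5 CPM they were 699 and 444, a limit chosen after seeing the data. To show what the start of such a gene looks like, the 250 bases before the start site are printed for 3 genes of each direction. These genes are among those with the largest differences that the RefSeq promoter table (GRCh38.p14) holds. The sequences run 5′ to 3′, with CG dinucleotides in capitals. They are TINAGL1 at chr1:31576265-31576514 on the plus strand, SERPINH1 at chr11:75562003-75562252 on the plus strand, LDOC1 at chrX:141177130-141177379 on the minus strand, MAGEA4 at chrX:151912224-151912473 on the plus strand, ADD2 at chr2:70768201-70768450 on the minus strand and PODXL2 at chr3:127628935-127629184 on the plus strand. The first 3 were on in T24 and the others in UMUC3. EFEMP1 and MT1E, with larger differences than LDOC1, had no entry in the promoter table. PNMA2, with a larger difference than PODXL2, was passed over, so the 6 are examples and not the strict top of each direction.
TINAGL1: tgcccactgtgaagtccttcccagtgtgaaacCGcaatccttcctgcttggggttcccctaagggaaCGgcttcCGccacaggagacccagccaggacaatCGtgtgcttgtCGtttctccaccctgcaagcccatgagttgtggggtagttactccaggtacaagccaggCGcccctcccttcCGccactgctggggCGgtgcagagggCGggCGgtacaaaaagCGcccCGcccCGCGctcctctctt
SERPINH1: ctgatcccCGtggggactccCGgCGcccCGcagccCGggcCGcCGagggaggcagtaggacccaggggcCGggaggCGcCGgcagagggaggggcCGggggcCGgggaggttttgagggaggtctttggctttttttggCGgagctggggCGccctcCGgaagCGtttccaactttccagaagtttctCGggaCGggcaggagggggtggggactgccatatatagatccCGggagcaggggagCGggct
LDOC1: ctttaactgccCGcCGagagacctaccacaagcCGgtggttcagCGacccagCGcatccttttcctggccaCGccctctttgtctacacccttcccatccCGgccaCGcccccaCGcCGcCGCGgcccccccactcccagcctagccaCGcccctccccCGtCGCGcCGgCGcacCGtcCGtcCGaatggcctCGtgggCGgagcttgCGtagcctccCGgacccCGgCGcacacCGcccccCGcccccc
MAGEA4: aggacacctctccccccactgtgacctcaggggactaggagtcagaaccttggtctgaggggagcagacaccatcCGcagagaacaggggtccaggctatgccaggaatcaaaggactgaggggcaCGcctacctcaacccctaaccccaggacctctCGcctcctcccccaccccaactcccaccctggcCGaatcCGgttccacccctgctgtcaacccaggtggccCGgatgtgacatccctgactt
ADD2: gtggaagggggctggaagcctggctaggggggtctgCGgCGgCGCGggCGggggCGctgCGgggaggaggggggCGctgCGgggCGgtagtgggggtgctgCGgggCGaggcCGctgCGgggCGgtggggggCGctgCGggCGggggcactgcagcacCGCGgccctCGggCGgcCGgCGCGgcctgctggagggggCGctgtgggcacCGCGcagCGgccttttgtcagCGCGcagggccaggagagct
PODXL2: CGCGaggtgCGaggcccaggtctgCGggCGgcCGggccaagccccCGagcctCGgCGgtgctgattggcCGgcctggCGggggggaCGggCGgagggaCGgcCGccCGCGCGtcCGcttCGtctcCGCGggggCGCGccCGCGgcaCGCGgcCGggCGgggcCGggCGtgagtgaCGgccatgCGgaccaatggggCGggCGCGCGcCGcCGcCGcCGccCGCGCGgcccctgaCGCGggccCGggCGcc
The number of CG dinucleotides was 14 in TINAGL1, 20 in SERPINH1, 29 in LDOC1, 6 in MAGEA4, 31 in ADD2 and 49 in PODXL2. Among these 6 promoters, denser and sparser ones occurred in both directions. Over the window from 250 bases before to 50 after the start, the observed to expected CpG ratio was 0.6 or more in 77.89% of 11912 tested genes with a promoter in the table, in 62.77% of 231 genes on in T24 and in 63.83% of 141 genes on in UMUC3. The letters TATAAA occurred on either strand of this window in 6.456% of all these promoters, in 12.55% of those on in T24 and in 10.64% of those on in UMUC3. DNA methylation and factor binding were not measured.

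Part of the silent genes lay side by side. Of 8672 genes with at least 10 CPM in every T24 library, 95 had 0 counts in all UMUC3 libraries, and of 8302 such genes of UMUC3, 42 had 0 counts in all T24 libraries. For scale, a library had 0 counts of a gene that stood at 5 CPM or more in both other libraries of its line in 1 to 4 genes per library, 14 in all, out of 10033 to 10475. The longest stretch of neighbouring tested genes at 0 in UMUC3 ran over 8 genes on chromosome 9, from 21802543 to 22455740, from MTAP to DMRTA1. It holds CDKN2A, which encodes the cell cycle inhibitors p16 and ARF (93.8, 142 and 130.0 CPM in T24 and 0 counts in every UMUC3 library), CDKN2B, which encodes p15 (26.9, 38.2 and 32.8 CPM in T24 and 0 counts in every UMUC3 library), and MTAP, the methylthioadenosine phosphorylase of the methionine salvage pathway (53.3, 25.2 and 65.1 CPM in T24 and 0 counts in every UMUC3 library). In T24 all 3 were expressed in each library. Genes on both sides had counts in both lines, among them KLHL9 at 42.0 ± 4.39 against 111 ± 11.6 CPM and TUSC1 at 45.9 ± 3.85 against 61.0 ± 2.96 CPM.

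On chromosome X, 6 genes from NXT2 to CHRDL1 between 109535781 and 110795819 had 0 counts in UMUC3, among them ACSL4, an acyl-CoA synthetase of polyunsaturated fatty acids (6.67 ± 2.0 against 0 CPM), TMEM164 (21.7 ± 14.8 against 0 CPM) and AMMECR1 (34.9 ± 3.02 against 0 CPM), while ALG13 beyond them stood at 20.1 ± 3.66 against 15.8 ± 2.61 CPM. PAK3, next to this stretch, had counts in 1 of 3 UMUC3 libraries (6.24 ± 3.71 against 0.0358 ± 0.062 CPM). ETFA lay in a stretch of 3 genes at 0 in UMUC3 with TMEM266 (0.987 ± 0.422 against 0 CPM) and TYRO3P (0.258 ± 0.112 against 0 CPM), both low in T24. SCAPER (15.9 ± 1.33 against 11.2 ± 0.657 CPM) and FBXO22 (59.3 ± 3.37 against 39.6 ± 9.03 CPM), each 3 tested genes from ETFA, were expressed in both lines. Of the stretches of 3 or more genes at 0 there were 23 in each line, and those with 2 or more genes at 10 CPM or more in the other line numbered 5 in UMUC3 and 1 in T24. DNA was not measured and copy number was not tested. A count of 0 covers named transcripts only, and whether reads of these genes were placed on transcripts without a gene name was not tested.

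**Figure D2:**
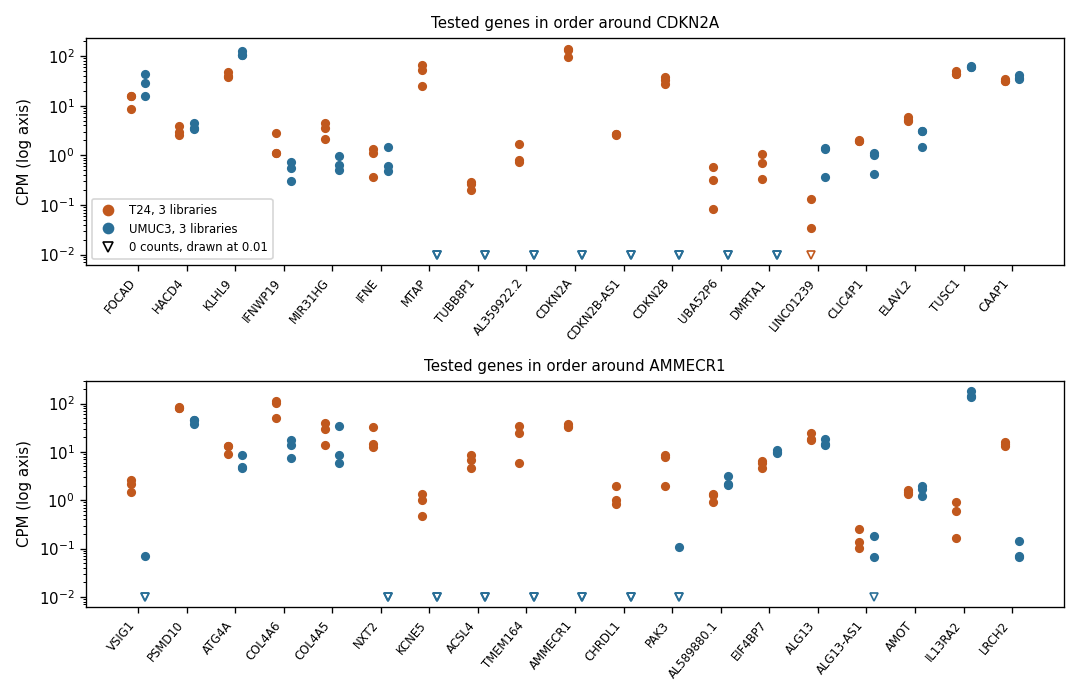
Levels in CPM on a log axis of tested genes in chromosomal order around CDKN2A and AMMECR1, 3 points for T24 and 3 for UMUC3 per gene, with libraries at 0 counts drawn as open triangles at 0.01. In each panel a stretch of neighbouring genes, 8 and 6 long, is at 0 in UMUC3 and has counts in T24, some of its genes under 1 CPM. PAK3, next to the stretch around AMMECR1, is at 0 in 2 of 3 UMUC3 libraries.

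Genes of the luminal urothelial program were higher in T24. Of 25 listed genes 19 were tested, 13 were called higher in T24 and 4 in UMUC3, with a median log2 difference of 4.30 (4.07 with genes at 0 set to their lower bound) beside 0.02 over all tested genes. No more than 4 members were composition-stable, with 3 called higher in T24 and 1 in UMUC3. GATA3, a master regulator of the luminal state, stood at 44.2, 73.5 and 59.5 CPM in T24 and 0.824, 0.677 and 0.657 CPM in UMUC3, a log2 difference of 6.34 ± 0.29 (SE; edgeR adjusted p = 0.000493). The other regulators FOXA1 (136 ± 19.4 against 5.04 ± 1.07 CPM), PPARG (62.8 ± 0.39 against 3.36 ± 1.499 CPM) and KLF5 (100.4 ± 12.0 against 2.26 ± 0.747 CPM) were called in the same direction, with adjusted p values of 0.000534, 0.00136 and 0.000725. KRT19, a keratin of simple and urothelial epithelia, stood at 543, 527 and 510.5 CPM in T24 and 0.0537, 0.0713 and 0.263 CPM in UMUC3 (11.97 ± 0.60 (SE; edgeR adjusted p = 0.000534); 11.56 to 12.99 with 1 library left out, over 1.5 times away without UMUC3 knockdown 2). KRT7 reached 171, 479.5 and 708 CPM in T24 and 4.12, 0.838 and 3.58 CPM in UMUC3 (7.21 ± 1.00 (SE; edgeR adjusted p = 0.00575); 6.47 to 8.07 with 1 library left out, over 1.5 times away without T24 control, UMUC3 control or UMUC3 knockdown 1; uncertain). The control was the lowest T24 library and still above every UMUC3 library. KRT8 stood at 1691, 1558 and 1481 CPM in T24 and 86.3, 91.0 and 81.4 CPM in UMUC3, and it and KRT18 (549.6 ± 248 against 91.7 ± 6.46 CPM) were called too. ADIRF stood at 58.5, 63.2 and 62.6 CPM in T24 and 0, 0 and 0.0328 CPM in UMUC3, with 2 counts over the UMUC3 libraries (uncertain). UMUC3 was higher in TRIM24 (-0.86 ± 0.13; uncertain) and, at a lower level, in the receptor gene FGFR3 (0.689 ± 0.539 against 9.58 ± 5.45 CPM). The terminal genes of the urothelial surface were near 0 in both lines. UPK1B, UPK2 and KRT20 did not reach the filter, and UPK1A (0 against 0.361 ± 0.0714 CPM) and UPK3B (0.533 ± 0.228 against 0 CPM) were at traces. Both are among the calls above, 1 in each direction, and each lost its call in 5 of 6 fits that left out a library. Of the 4 luminal regulators, FOXA1 had the highest mean in UMUC3, 5.04 CPM.

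Basal and squamous genes were more often called higher in T24 than in UMUC3. Of 25 listed genes 12 were tested, with 5 called higher in T24, 1 in UMUC3 and a median log2 difference of 0.76. The 5 composition-stable members had 2 calls higher in T24 and 1 in UMUC3, with a median of 0.24. KRT17, a keratin of basal and injured epithelia, stood at 19.2, 21.9 and 23.2 CPM in T24 and 0 counts in every UMUC3 library (at least 411-fold). SFN, the epithelial 14-3-3 protein, stood at 278, 162 and 150.0 CPM in T24 and 0.537, 0.856 and 0.723 CPM in UMUC3 (8.07 ± 0.40 (SE; edgeR adjusted p = 0.00052)). S100A2 stood at 158 ± 48.2 against 4.0 ± 1 CPM (5.26 ± 0.30). The defining basal markers KRT5 (0.264 ± 0.236 against 0.144 ± 0.191 CPM) and TP63 (0.0224 ± 0.0388 against 0.328 ± 0.157 CPM) were at or near 0 in both lines and were not called.

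Genes of epithelial junctions and epithelial splicing were more often called higher in T24 than in UMUC3. CDH1, which encodes E-cadherin, did not reach the filter in either line. Of 33 listed genes 23 were tested, 13 were called higher in T24 and 1 in UMUC3, with a median log2 difference of 4.91 (3.38 with genes at 0 set to their lower bound). DSP, which encodes the desmosomal plaque protein desmoplakin, stood at 54.8, 68.1 and 69.4 CPM in T24 and 0, 0.143 and 0.0657 CPM in UMUC3 (9.91 ± 0.74 (SE; edgeR adjusted p = 0.00124); 9.35 to 10.77 with 1 library left out, over 1.5 times away without UMUC3 knockdown 1). JUP, plakoglobin, stood at 200.1, 194 and 195 CPM in T24 and 0.215, 0.357 and 0.64 CPM in UMUC3 (8.96 ± 0.43 (SE; edgeR adjusted p = 0.000516)). PKP2, a plakophilin, stood at 39.4, 20.3 and 17.6 CPM in T24 and 0 counts in every UMUC3 library (at least 494-fold). No UMUC3 library reached 1 CPM in these 3 genes. CLDN1, a claudin of tight junctions (245 ± 86.8 against 4.44 ± 4.63 CPM), F11R, the junctional adhesion molecule (11.01 ± 0.748 against 0.159 ± 0.0967 CPM), and the membrane protease inhibitors SPINT1 (29.8 ± 1.82 against 0 CPM) and SPINT2 (80.2 ± 9.37 against 0.195 ± 0.0924 CPM) followed. ESRP2, an epithelial splicing factor, stood at 10.7 ± 1.89 against 0.0814 ± 0.0223 CPM. The tight junction scaffold TJP1 (57.5 ± 57.8 against 82.7 ± 42.8 CPM) was not called. OCLN, occludin, was higher in UMUC3 (5.74 ± 0.964 against 13.5 ± 3.72 CPM; uncertain; not called without T24 knockdown 1 or T24 knockdown 2, with adjusted p values up to 0.0576 over the 6 fits that left out a library).

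Mesenchymal genes were called in both directions, more often higher in T24. Of 28 tested genes of 35 listed EMT regulators and mesenchymal genes, 14 were called higher in T24 and 7 in UMUC3, with a median log2 difference of 0.68. The 12 composition-stable members had 8 calls higher in T24 and 2 in UMUC3, with a median of 2.21. VIM stood at 131, 197 and 202 CPM in T24 and 3270.0, 3199.9 and 3166 CPM in UMUC3 (-4.21 ± 0.17 (SE; edgeR adjusted p = 0.000364); uncertain), the gene with which UMUC3 led. Per transcript length (TPM), VIM was at 3402, 3266 and 3351 in UMUC3 beside 101, 106 and 93.9 for KRT8, and in T24 at 153, 225 and 235 beside 2004, 1786 and 1714. The order of the filament genes was thus opposite in the lines in every library. The EMT transcription factors did not move together. TWIST1 was higher in UMUC3 (0 counts in every T24 library and 7.41, 6.76 and 5.68 CPM in UMUC3). SNAI1 was too (1.56, 3.93 and 4.42 CPM in T24 and 20.4, 22.7 and 23.2 CPM in UMUC3; -2.86 ± 0.33 (SE; edgeR adjusted p = 0.00355)). SNAI2 (29.2 ± 10.7 against 3.71 ± 2.29 CPM; adjusted p = 0.00211) was higher in T24. ZEB1 was not called (29.5 ± 17.2 against 77.1 ± 78.1 CPM). T24 had more CDH2, N-cadherin (276 ± 76.2 against 70.7 ± 12.2 CPM), and more TAGLN (128 ± 77.8 against 2.99 ± 0.284 CPM). FN1, fibronectin, stood at 2012, 3909 and 4091 CPM in T24 and 5.14, 5.51 and 7.83 CPM in UMUC3 (9.02 ± 0.27 (SE; edgeR adjusted p = 0.000244); uncertain). FBN1, fibrillin, stood at 237, 622 and 626 CPM in T24 and 0.824, 1.77 and 1.84 CPM in UMUC3 (8.35 ± 0.13 (SE; edgeR adjusted p = 0.000188)). The surface glycoprotein THY1 was higher in UMUC3 (0.0337, 0.219 and 0 CPM in T24 and 11.6, 10.2 and 10.5 CPM in UMUC3).

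**Figure D3:**
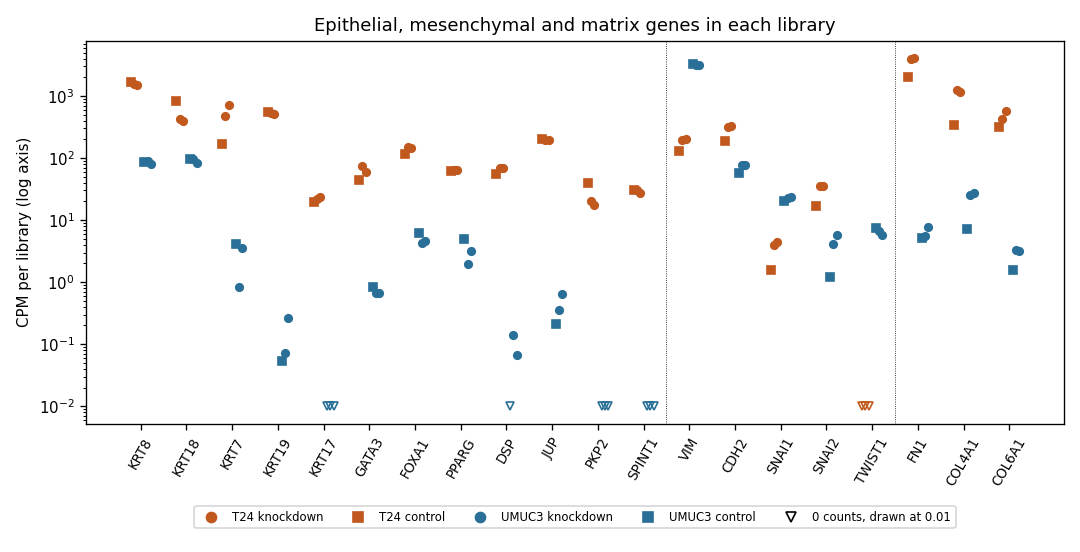
CPM on a log axis in each of 6 libraries for 12 keratin, luminal and junction genes (left), 5 mesenchymal genes (middle) and 3 matrix genes (right), with squares for controls, circles for knockdown libraries and open triangles at 0.01 for 0 counts. T24 libraries lie above UMUC3 libraries for every gene drawn in the left and right panels, and below them for VIM, SNAI1 and TWIST1. The genes were picked from the lists with their values known. Listed genes higher in UMUC3, such as TRIM24, OCLN, COL5A1 and LAMA1, are not drawn.

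Genes of the basement membrane, the sheet of collagen IV, laminin, nidogen and proteoglycan under an epithelium, were higher in T24. Of 23 listed genes 20 were tested, 13 were called higher in T24 and 1 in UMUC3, with a median log2 difference of 2.50. COL4A1 stood at 341, 1271 and 1151 CPM in T24 and 7.16, 25.4 and 26.8 CPM in UMUC3 (5.55 ± 0.10 (SE; edgeR adjusted p = 0.000193)). COL4A2, its partner chain, stood at 939, 1853 and 1672 CPM in T24 and 25.2, 46.1 and 40.1 CPM in UMUC3 (5.31 ± 0.11 (SE; edgeR adjusted p = 0.000193)). In both lines the control library was the lowest for these chains, and the lines did not overlap. Of the laminin-332 chains, LAMA3 (20.1 ± 4.63 against 1.80 ± 0.873 CPM) and LAMB3 (473 ± 25.7 against 53.8 ± 9.02 CPM) were called too. LAMA4 stood at 37.0, 51.2 and 121 CPM in T24 and 0 counts in every UMUC3 library, and NID1, nidogen, at 422 ± 72.6 against 18.2 ± 1.35 CPM. LAMA1 was the exception (0.858, 0.487 and 0.875 CPM in T24 and 22.0, 7.81 and 8.87 CPM in UMUC3; -3.97 ± 0.40; uncertain). HSPG2, perlecan (158 ± 27.9 against 278 ± 122 CPM), was not called.

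Among other collagens 6 of 16 tested genes, of 18 listed, were called higher in T24 and 2 in UMUC3, with a median log2 difference of 2.45. Without TMM factors the calls were 6 and 4. The 6 composition-stable members had 2 calls higher in T24 and 1 in UMUC3, with a median of 0.77. COL6A1 stood at 321, 430.2 and 572 CPM in T24 and 1.56, 3.32 and 3.19 CPM in UMUC3 (7.40 ± 0.21 (SE; edgeR adjusted p = 0.000231)). COL12A1 stood at 613 ± 71.3 against 7.48 ± 1.74 CPM (6.37 ± 0.25), COL8A1 at 58.5 ± 6.37 against 0 CPM (uncertain) and COL5A2 at 102 ± 42.8 against 0.0219 ± 0.0379 CPM. COL5A1, whose product forms one fibril with that of COL5A2, was higher in UMUC3 (0.303, 1.23 and 0.976 CPM in T24 and 21.5, 119 and 109 CPM in UMUC3; -6.53 ± 0.23 (SE; edgeR adjusted p = 0.000273); uncertain). The major fibrillar gene COL1A1 was low in both lines (4.25 ± 1.39 against 7.21 ± 2.36 CPM).

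Integrins, the receptors of this matrix, differed in their alpha and beta chains. Of 23 tested of 25 listed genes 8 were called higher in T24 and 3 in UMUC3 (median log2 difference 0.88). The 13 composition-stable members had 4 calls higher in T24 and 2 in UMUC3, with a median of 0.16. ITGB4, the hemidesmosomal chain, stood at 68.7, 28.5 and 23.8 CPM in T24 and 0 counts in every UMUC3 library (at least 773-fold; uncertain). ITGB8 stood at 121 ± 30.1 against 0.0219 ± 0.0379 CPM and ITGA3, a laminin receptor chain, at 1717 ± 255 against 856 ± 38.3 CPM. UMUC3 alone had ITGA4, a chain best known from leukocytes (0 counts in every T24 library and 36.0, 40.0 and 44.4 CPM in UMUC3; at least 795-fold higher). UMUC3 also had more ITGB1, the common beta chain (1489.7 ± 141 against 2342 ± 424 CPM; -0.64 ± 0.08).

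Among matrix proteases and inhibitors 12 of 28 tested genes, of 30 listed, were called higher in T24 and 6 in UMUC3 (median log2 difference 0.50). The plasminogen activators went in opposite directions. PLAT, tissue plasminogen activator, stood at 425, 238 and 229 CPM in T24 and 8.68, 10.2 and 8.77 CPM in UMUC3 (4.95 ± 0.27 (SE; edgeR adjusted p = 0.000616); uncertain). PLAU, urokinase, stood at 78.4, 74.4 and 69.6 CPM in T24 and 1795, 587 and 565 CPM in UMUC3 (-3.49 ± 0.36 (SE; edgeR adjusted p = 0.00263); uncertain), with the UMUC3 control the highest library and no overlap between the lines. TIMP3, a matrix-bound metalloprotease inhibitor, stood at 393, 280.4 and 280.4 CPM in T24 and 0.0716, 0 and 0 CPM in UMUC3 (13.69 ± 0.67 (SE; edgeR adjusted p = 0.00052); 13.21 to 17.02 with 1 library left out, over 1.5 times away without T24 control or UMUC3 control). The collagenase MMP13 (8.45 ± 6.03 against 0 CPM) was found in T24 and the gelatinase MMP9 (0 against 13.6 ± 17.2 CPM) in UMUC3. MMP14, the membrane-bound protease, was abundant in both and higher in T24 (895 ± 358 against 411 ± 75.5 CPM; not called without UMUC3 knockdown 2, with adjusted p values up to 0.0575 over the 6 fits that left out a library).

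**Figure D4:**
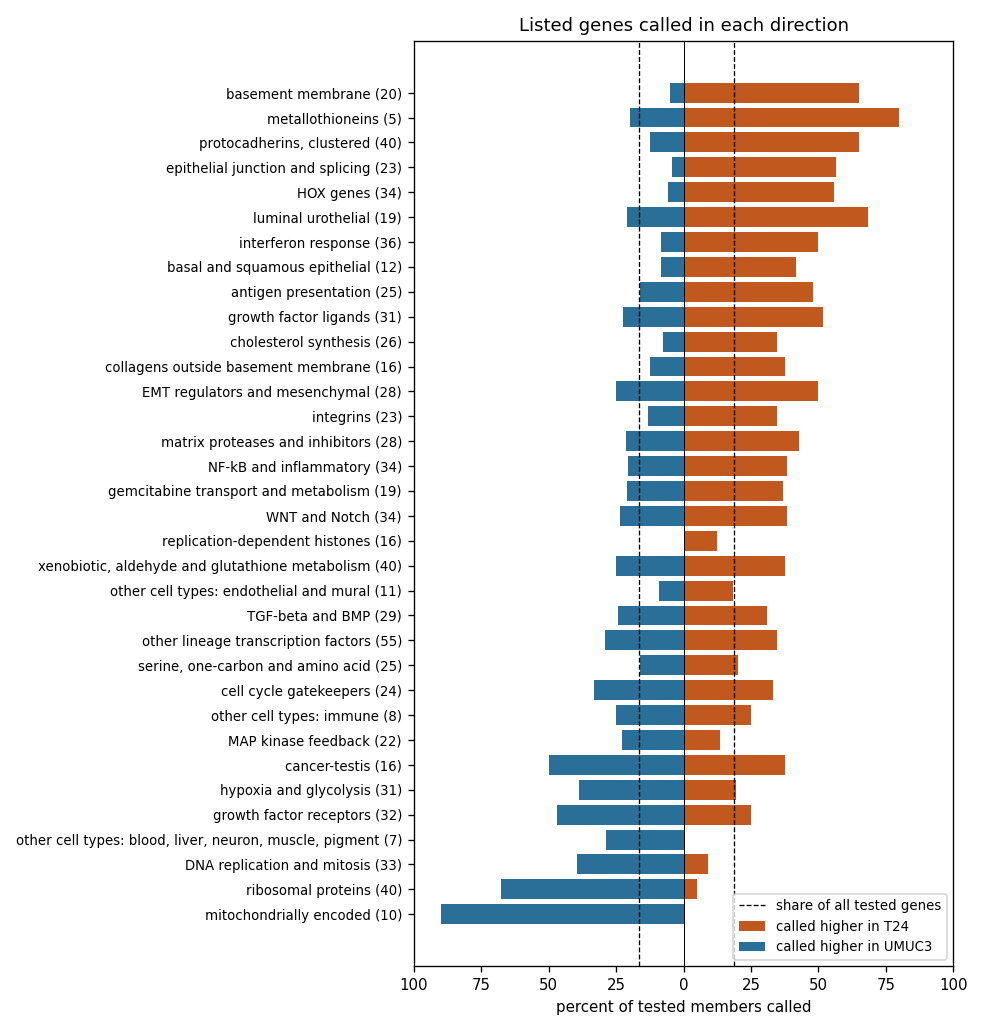
Percent of the tested members of each gene list called higher in T24 (right) or in UMUC3 (left), with the number tested in brackets and dashed lines at the shares of all tested genes, 18.8% and 16.5%. Basement membrane, metallothionein, protocadherin, junction, HOX and luminal genes lean to T24, and mitochondrially encoded, ribosomal and replication genes to UMUC3. All tested members are drawn, composition-stable or not. Protein-coding genes, called more often than all tested genes, have no line of their own.

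Growth factor receptors were called in both directions, more often higher in UMUC3. Of 32 tested receptor genes (34 listed) 8 were called higher in T24 and 15 in UMUC3 (median log2 difference -0.31). FGFR1 stood at 11.4, 23.5 and 28.7 CPM in T24 and 234, 180.0 and 99.4 CPM in UMUC3 (-3.04 ± 0.52 (SE; edgeR adjusted p = 0.0105); -3.48 to -2.42 with 1 library left out, over 1.5 times away without T24 control or UMUC3 control). FGFR4 stood at 1.42 ± 0.287 against 10.3 ± 2.29 CPM (-2.86 ± 0.23; uncertain). ROR2, a WNT5A receptor, stood at 0 counts in every T24 library and 19.8, 19.8 and 17.1 CPM in UMUC3 (at least 375-fold higher in UMUC3). DDR2, a collagen receptor, was higher in UMUC3 as well (1.49 ± 0.331 against 8.69 ± 1.03 CPM; -2.55 ± 0.25). T24 had more ERBB2 (134 ± 1.31 against 40.2 ± 7.39 CPM) and more IGF1R (149 ± 21.7 against 41.7 ± 5.87 CPM; 1.83 ± 0.10; uncertain). NTRK2, the receptor of the neurotrophin BDNF, stood at 18.1, 15.3 and 17.2 CPM in T24 and 0 counts in every UMUC3 library (uncertain). MST1R, a receptor of the MET family, stood at 15.9 ± 3.21 against 0.141 ± 0.14 CPM. EGFR (276 ± 103 against 201 ± 35.6 CPM) and MET (139.8 ± 8.46 against 152 ± 38.8 CPM), abundant in both, were not called.

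Ligand genes leaned to T24, with 16 of 31 tested (32 listed) called higher there and 7 in UMUC3, and a median log2 difference of 1.12. PDGFB stood at 168, 176 and 181 CPM in T24 and 0.877, 1.77 and 2.07 CPM in UMUC3 (6.87 ± 0.30 (SE; edgeR adjusted p = 0.000468)). INHBA, the activin subunit, stood at 61.8 ± 24.1 against 0.155 ± 0.135 CPM (8.59 ± 1.11; 7.82 to 9.48 with 1 library left out, over 1.5 times away without T24 control, UMUC3 control or UMUC3 knockdown 2), TGFA at 43.0 ± 0.838 against 2.11 ± 0.868 CPM, GDF15 at 48.6 ± 11.2 against 0.459 ± 0.157 CPM and TGFB2 at 12.7 ± 1.82 against 0.0821 ± 0.142 CPM. FST, which binds and blocks activin, stood at 85.6, 132 and 128 CPM in T24 and 0 counts in every UMUC3 library. UMUC3 had more BMP7 (0, 0 and 0.0673 CPM in T24 and 11.1, 11.9 and 11.1 CPM in UMUC3; -8.90 ± 1.00 (SE; edgeR adjusted p = 0.00338); -12.37 to -8.33 with 1 library left out, over 1.5 times away without T24 knockdown 2). It also had more ANGPTL4 (7.46 ± 1.45 against 154 ± 24.3 CPM; uncertain) and the EGF receptor ligand HBEGF (31.1 ± 4.33 against 91.6 ± 22.1 CPM; -1.54 ± 0.22). Of the feedback genes of the MAP kinase pathway 3 of 22 tested were called higher in T24 and 5 in UMUC3, beside 18.8% and 16.5% of all tested genes. ETV1, an ETS factor, was higher in T24 (33.7 ± 4.72 against 10.9 ± 0.932 CPM; 1.62 ± 0.17; uncertain). SPRED1, an inhibitor of the pathway, was too (133 ± 13.7 against 49.4 ± 35.9 CPM; not called without T24 knockdown 1, T24 knockdown 2, UMUC3 knockdown 1 or UMUC3 knockdown 2, with adjusted p values up to 0.0871 over the 6 fits that left out a library). EGR1, an immediate early factor, stood at 27.4, 18.3 and 20.4 CPM in T24 and 175, 241 and 245 CPM in UMUC3 (-3.33 ± 0.24 (SE; edgeR adjusted p = 0.00121)). DUSP6 (34.7 ± 9.70 against 26.8 ± 7.93 CPM), SPRY4 (97.9 ± 30.2 against 100.2 ± 17.9 CPM) and ETV5 (89.2 ± 41.2 against 90.8 ± 39.7 CPM) were not called.

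In the TGF-beta and BMP list 9 of 29 genes were called higher in T24 and 7 in UMUC3 (median log2 difference -0.27). LTBP3, which binds latent TGF-beta (87.2 ± 33.1 against 11.54 ± 0.309 CPM; 2.88 ± 0.27; uncertain), and ACVR2A, an activin receptor (14.0 ± 0.956 against 4.74 ± 1.07 CPM; 1.58 ± 0.24), were higher in T24. Of BMP targets, ID2 stood at 0.673, 1.06 and 1.70 CPM in T24 and 29.3, 34.2 and 32.8 CPM in UMUC3 (-4.87 ± 0.33 (SE; edgeR adjusted p = 0.00104); uncertain). ID3 stood at 95.1 ± 39.8 against 268 ± 91.8 CPM (-1.54 ± 0.12) and SMAD6 at 19.5 ± 2.37 against 51.4 ± 11.9 CPM (-1.38 ± 0.14). ID1 was not called (251 ± 11.8 against 372 ± 119 CPM). The secreted TGF-beta target TGFBI was higher in UMUC3 (27.9 ± 14.9 against 136 ± 39.9 CPM; -2.44 ± 0.24). Of the WNT and Notch genes 13 of 34 tested (38 listed) were called higher in T24 and 8 in UMUC3 (median 0.16). DKK1, a secreted WNT antagonist, stood at 305, 460.4 and 466 CPM in T24 and 1.72, 5.83 and 5.19 CPM in UMUC3 (6.74 ± 0.30 (SE; edgeR adjusted p = 0.000476)). SFRP1, another, stood at 0 counts in every T24 library and 12.2, 18.3 and 17.8 CPM in UMUC3 (at least 318-fold higher in UMUC3). The receptors FZD6 (100.2 ± 6.79 against 0.131 ± 0.0631 CPM; uncertain) and FZD8 (299.9 ± 162 against 8.43 ± 2.37 CPM) and the Notch ligand JAG1 (1151 ± 456 against 59.8 ± 2.03 CPM) were higher in T24. The nuclear factor LEF1 was higher in UMUC3 (1.004 ± 0.642 against 7.13 ± 2.55 CPM; uncertain).

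Inflammatory genes divided by gene. Of 34 tested NF-kB and inflammatory genes (37 listed) 13 were called higher in T24 and 7 in UMUC3, with a median log2 difference of 0.68. IL1B, the cytokine interleukin-1 beta, stood at 115, 88.8 and 88.5 CPM in T24 and 0.0895, 0 and 0.394 CPM in UMUC3 (9.20 ± 1.11 (SE; edgeR adjusted p = 0.00405); 8.65 to 11.23 with 1 library left out, over 1.5 times away without UMUC3 knockdown 2). PTX3, a secreted pattern recognition protein, stood at 277, 279 and 279 CPM in T24 and 0, 0.143 and 0.197 CPM in UMUC3 (11.31 ± 0.77 (SE; edgeR adjusted p = 0.00105); 10.66 to 11.89 with 1 library left out, over 1.5 times away without T24 control or UMUC3 control). CSF3, the granulocyte growth factor, stood at 28.9, 55.6 and 49.3 CPM in T24 and 0 counts in every UMUC3 library. No UMUC3 library reached 0.5 CPM in these 3. The chemokines CXCL6 (72.8 ± 38.6 against 9.23 ± 0.475 CPM) and CXCL5 (16.0 ± 1.496 against 0.0179 ± 0.031 CPM) were higher in T24, whereas CXCL2 (2.84 ± 0.822 against 19.8 ± 8.78 CPM; -2.73 ± 0.42) and CXCL3 (2.09 ± 0.869 against 26.5 ± 18.3 CPM; -3.46 ± 0.62; -3.91 to -2.69 with 1 library left out, over 1.5 times away without T24 control or UMUC3 control) were higher in UMUC3. The NF-kB subunit RELB stood at 7.24, 8.91 and 9.02 CPM in T24 and 84.8, 39.2 and 38.1 CPM in UMUC3 (-2.58 ± 0.35; uncertain).

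Interferon response genes leaned to T24, with 18 of 36 called higher there and 3 in UMUC3 (median log2 difference 0.94). BST2, tetherin, stood at 105, 103 and 94.6 CPM in T24 and 0 counts in every UMUC3 library (at least 1933-fold). IFITM2 stood at 106, 95.9 and 96.9 CPM in T24 and 2.02, 0.499 and 0.591 CPM in UMUC3 (6.85 ± 0.48 (SE; edgeR adjusted p = 0.0011); 6.57 to 7.46 with 1 library left out, over 1.5 times away without T24 control or UMUC3 control), OAS2 at 24.9 ± 1.20 against 0.141 ± 0.0746 CPM (7.50 ± 0.45) and IFITM1 at 44.9 ± 42.3 against 0.0119 ± 0.0206 CPM, with 2 counts over the UMUC3 libraries. ISG15 (104 ± 2.60 against 30.2 ± 6.04 CPM) and IRF7 (28.8 ± 2.59 against 3.17 ± 0.693 CPM) were called as well. IFIT1 (8.68 ± 1.37 against 8.43 ± 0.703 CPM) was not, and SAMD9 was higher in UMUC3 (19.8 ± 1.44 against 63.6 ± 22.2 CPM; -1.62 ± 0.21). Of 25 tested antigen presentation genes (28 listed) 12 were called higher in T24 and 4 in UMUC3 (median 1.16). B2M, the shared light chain of class I molecules, stood at 595 ± 22.5 against 199.7 ± 20.4 CPM, and the immunoproteasome subunit PSMB8 at 38.0 ± 6.86 against 12.0 ± 0.505 CPM. HLA-B was higher in UMUC3 (1.88, 4.001 and 4.56 CPM in T24 and 32.1, 21.7 and 16.7 CPM in UMUC3; -2.78 ± 0.48 (SE; edgeR adjusted p = 0.0108); -3.11 to -2.16 with 1 library left out, over 1.5 times away without T24 control or UMUC3 control) and HLA-E in T24 (447 ± 8.28 against 110.0 ± 14.9 CPM). HLA genes are near-identical and polymorphic, and their counts are uncertain.

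Cancer-testis genes, silent in most adult tissues, were called in both directions. Of 39 listed genes 16 were tested, 6 were called higher in T24 and 8 in UMUC3, with a median log2 difference of -0.84. MAGEC2 stood at 0.539, 0.605 and 0.202 CPM in T24 and 101, 106 and 98.5 CPM in UMUC3 (-7.83 ± 0.48 (SE; edgeR adjusted p = 0.000784)). MAGEA10 stood at 0, 0 and 0.202 CPM in T24 and 27.0, 62.0 and 39.2 CPM in UMUC3 (-9.41 ± 1.19 (SE; edgeR adjusted p = 0.0045); -14.14 to -8.76 with 1 library left out, over 1.5 times away without T24 knockdown 1 or T24 knockdown 2). UMUC3 also had DDX43 (0.224 ± 0.228 against 23.8 ± 6.18 CPM) and PRAME (0 against 2.08 ± 0.954 CPM), besides MAGEA4. T24 expressed MAGEA11 (5.84, 5.18 and 5.20 CPM in T24 and 0 counts in every UMUC3 library; at least 104-fold higher). MAGED1, a ubiquitous member of the family, was higher in T24 (305 ± 32.5 against 25.6 ± 1.98 CPM; 3.57 ± 0.12; uncertain). MAGEA3 (10.5 ± 1.70 against 32.0 ± 5.798 CPM) and MAGEA6 (3.47 ± 0.606 against 138 ± 17.2 CPM), both called higher in UMUC3, are near-identical and are uncertain for that reason. The longest run of neighbouring genes on in UMUC3 held the chorionic gonadotropin genes CGB5 (0 against 3.16 ± 2.25 CPM) and CGB8 (0 against 11.7 ± 5.79 CPM), which are near-identical copies too.

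HOX genes, which record position along the body axis, were more widely expressed in T24. Of 39 listed genes 34 were tested, 19 were called higher in T24 and 2 in UMUC3, with a median log2 difference of 1.27. The longest runs of neighbouring genes on in T24 and off in UMUC3 held 4 genes, and there were 2 of them, both on chromosome 7. HOXA7, HOXA9, HOXA10-AS and HOXA10 lay between 27153716 and 27180261. CTAGE8, ARHGEF34P, OR2A9P and OR2A1-AS1 lay between 144266701 and 144356181. This run overlapped another of 3 genes on in T24, from 144183466 to 144280547, which holds CTAGE4 and ARHGEF35. Whether genes of these 2 overlapping runs share reads was not tested. HOXA10 stood at 15.5, 23.2 and 24.2 CPM in T24 and 0 counts in every UMUC3 library (at least 402-fold). HOXA9 stood at 4.68, 6.74 and 4.66 CPM in T24 and 0 counts in every UMUC3 library. HOXA10-AS (4.93 ± 0.615 against 0 CPM) overlaps HOXA10 in antisense, and the sources used here do not give whether the counting used strand. HOXB13 (22.6, 19.0 and 17.6 CPM in T24 and 0 counts in every UMUC3 library) and HOXC9 (14.0 ± 3.08 against 0 CPM) were further genes at 0 in UMUC3. HOXD13, the last gene of its cluster, went the other way (0 against 5.36 ± 0.502 CPM). HOXB2 (55.5 ± 5.31 against 66.6 ± 22.8 CPM) and HOXD9 (21.1 ± 2.24 against 18.5 ± 1.83 CPM) were not called.

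Other lineage transcription factors were called in both directions, 19 of 55 tested (71 listed) in T24 and 16 in UMUC3, with a median log2 difference of 0.02 (-0.01 without TMM factors). PAX8, a factor of kidney, thyroid and Müllerian tissue, stood at 327, 135 and 141 CPM in T24 and 0.609, 0.357 and 0.197 CPM in UMUC3 (9.0 ± 0.27 (SE; edgeR adjusted p = 0.000244)). FOXL2 (16.0 ± 0.529 against 0 CPM) and IRX2 (11.7 ± 1.09 against 0 CPM) were at 0 in UMUC3, and TFAP2C stood at 32.1 ± 3.07 against 0.427 ± 0.234 CPM. BARX2 stood at 0 counts in every T24 library and 7.68, 9.97 and 9.87 CPM in UMUC3. UMUC3 had more FOXD1 (61.5 ± 12.7 against 274 ± 49.4 CPM; -2.16 ± 0.23) and more NKX2-5, a cardiac factor (8.56 ± 0.29 against 32.5 ± 4.84 CPM; -1.92 ± 0.17). Clustered protocadherins, which give neurons a surface identity, leaned to T24. Of these 26 of 40 tested (53 listed) were called higher there and 5 in UMUC3, with a median log2 difference of 4.64 (4.01 with genes at 0 set to their lower bound). Genes of the alpha and gamma clusters share exons. Single members of every cluster are treated as uncertain. PCDHB14 (8.72 ± 0.858 against 0.21 ± 0.219 CPM; 5.69 ± 0.84; 5.05 to 6.45 with 1 library left out, over 1.5 times away without T24 control, UMUC3 control or UMUC3 knockdown 1) and PCDHGB5 (40.1 ± 20.1 against 0 CPM) were higher in T24.

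Cell cycle gatekeepers were called in both directions, 8 of 24 each, with a median log2 difference of -0.04. Beside CDKN2A and CDKN2B, described above, the D-type cyclins differed. CCND2 stood at 0.0673, 0 and 0 CPM in T24 and 71.7, 58.6 and 53.9 CPM in UMUC3 (-11.41 ± 0.78 (SE; edgeR adjusted p = 0.00105); -14.70 to -10.93 with 1 library left out, over 1.5 times away without T24 control or UMUC3 control). CCND1 stood at 257, 149 and 278 CPM in T24 and 596, 656 and 437 CPM in UMUC3. RB1, which encodes the protein their kinases phosphorylate, was not called (134 ± 19.8 against 122 ± 21.7 CPM). CCND1 was called higher in UMUC3 (edgeR adjusted p = 0.0218; not called without T24 control, UMUC3 control or UMUC3 knockdown 1, with adjusted p values up to 0.0757 over the 6 fits that left out a library). Of 33 DNA replication and mitosis genes 3 were called higher in T24 and 13 in UMUC3 (median -0.29). The 18 composition-stable members had 2 calls higher in T24 and 5 in UMUC3, with a median of -0.07. The helicase gene MCM7 stood at 371, 321 and 309 CPM in T24 and 708, 839 and 790.1 CPM in UMUC3 (-1.23 ± 0.12 (SE; edgeR adjusted p = 0.00229)). The kinase gene TTK stood at 59.4 ± 4.09 against 128 ± 10.9 CPM (-1.11 ± 0.12). CCNB1, the mitotic cyclin, was higher in T24 (310.0 ± 20.3 against 129 ± 8.55 CPM; 1.26 ± 0.10).

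Ribosomal protein genes were higher in UMUC3. Of 40 genes 27 were called there and 2 in T24, with a median log2 difference of -0.70. RPS6 stood at 519, 495 and 503 CPM in T24 and 2009, 2065 and 1844 CPM in UMUC3 (-1.96 ± 0.08 (SE; edgeR adjusted p = 0.000345); uncertain). RPLP1 stood at 1292, 1109 and 1064 CPM in T24 and 3029, 2813 and 2588 CPM in UMUC3 (-1.29 ± 0.07 (SE; edgeR adjusted p = 0.000616)) and RPL22 at 269 ± 17.7 against 684 ± 36.4 CPM (-1.34 ± 0.08). RPL13 went the other way (1797 ± 158 against 1177 ± 77.6 CPM; 0.61 ± 0.09). Many of these genes have pseudogene copies, which makes single values uncertain. The summed level of the list was 32089 to 33137 CPM in T24 and 47331 to 53222 CPM in UMUC3. Mitochondrially encoded genes moved beside them, with 9 of 10 tested called higher in UMUC3 and none in T24 (median -0.81). MT-ND1 stood at 839, 1261 and 1303 CPM in T24 and 3186, 2666 and 2958 CPM in UMUC3 (-1.40 ± 0.18 (SE; edgeR adjusted p = 0.00496)), and MT-CO1 was not called (12443 ± 1628 against 12529 ± 455 CPM). The summed level of these genes, which also reads RNA quality and selection, was 24018 to 31845 CPM in T24 and 38692 to 41866 CPM in UMUC3. Replication-dependent histones, which lack poly(A) tails, were low in both lines. Of 16 tested 2 were called higher in T24 and 0 in UMUC3, beside 18.8% and 16.5% of all tested genes. The part of RNA quality or selection in the differences was not tested.

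Enzymes that handle aldehydes, oxidants and drugs differed by gene. Of 40 tested genes (44 listed) of xenobiotic, aldehyde and glutathione metabolism 15 were called higher in T24 and 10 in UMUC3 (median log2 difference 0.23). Of the aldehyde dehydrogenases, ALDH1A3 stood at 539.9, 161 and 161 CPM in T24 and 0, 0.428 and 0.131 CPM in UMUC3 (10.32 ± 1.29 (SE; edgeR adjusted p = 0.00443); 9.17 to 11.88 with 1 library left out, over 1.5 times away without T24 control, UMUC3 control or UMUC3 knockdown 1). ALDH2 stood at 23.4, 21.2 and 19.0 CPM in T24 and 0 counts in every UMUC3 library, and ALDH1A1 at 0 counts in every T24 library and 7.81, 8.31 and 10.3 CPM in UMUC3. TXNRD1 and SRXN1, both targets of the oxidant sensor NRF2, were higher in UMUC3. TXNRD1, a thioredoxin reductase, stood at 306, 288 and 315 CPM in T24 and 2563, 1499 and 1621 CPM in UMUC3 (-2.60 ± 0.17 (SE; edgeR adjusted p = 0.00099)). SRXN1, sulfiredoxin, stood at 138 ± 2.16 against 481 ± 79.0 CPM (-1.79 ± 0.11). GSTM1, a glutathione transferase that many human genomes lack, was at 15.7 ± 2.05 against 0.0284 ± 0.0255 CPM. Metallothioneins, which bind zinc and copper, were split within a cluster on chromosome 16. Of 9 listed 5 were tested, with 4 called higher in T24 and 1 in UMUC3. MT1E, MT1M and MT1F, neighbours between 56625475 and 56660698, had 0 counts in UMUC3 (7.53 ± 0.62 against 0 CPM for MT1M). MT2A was expressed in both lines (1158, 1309 and 1278 CPM in T24 and 854, 883 and 835 CPM in UMUC3; 0.54 ± 0.07 (SE; edgeR adjusted p = 0.00544)). So was MT1X (24.2 ± 4.55 against 35.7 ± 2.23 CPM; not called in any of the 6 fits that left out a library, with adjusted p values up to 0.133). These genes are close copies of each other.

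The series' title names gemcitabine, a nucleoside drug that enters through SLC29A1, is activated by DCK and inhibits RRM1. Of 19 tested genes (21 listed) of its transport and metabolism 7 were called higher in T24 and 4 in UMUC3 (median log2 difference -0.21). Among the 7 composition-stable ones the calls were 1 and 2. NT5E, the surface nucleotidase CD73, stood at 56.4, 76.5 and 79.7 CPM in T24 and 1238, 1569 and 1721 CPM in UMUC3 (-4.42 ± 0.09 (SE; edgeR adjusted p = 0.000193)). SLC29A1 was higher in UMUC3 (62.7 ± 21.2 against 125 ± 24.01 CPM; -1.04 ± 0.18; uncertain). DCK was higher in T24 (70.2 ± 7.67 against 46.0 ± 1.31 CPM; not called without T24 knockdown 1, T24 knockdown 2, UMUC3 knockdown 1 or UMUC3 knockdown 2, with adjusted p values up to 0.0592 over the 6 fits that left out a library). RRM1 was higher in T24 as well (389.6 ± 34.6 against 240.1 ± 33.0 CPM; not called without T24 knockdown 2, with adjusted p values up to 0.0567 over the 6 fits that left out a library). CDA, which inactivates the drug, was near 0 in both lines (0.135 ± 0.178 against 0.16 ± 0.0875 CPM). Drug response was not measured.

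In hypoxia and glycolysis genes 6 of 31 were called higher in T24 and 12 in UMUC3 (median log2 difference -0.27). Of all tested genes 18.8% were called higher in T24, a share near that of this list, and 16.5% in UMUC3. Among the 14 composition-stable ones 0 were called higher in T24 and 7 in UMUC3. HK1, a hexokinase, stood at 427, 242 and 385 CPM in T24 and 1.88, 0.874 and 1.59 CPM in UMUC3 (7.93 ± 0.38 (SE; edgeR adjusted p = 0.000516)). HK2, another, was called higher in UMUC3 (134 ± 21.7 against 327 ± 4.74 CPM). LDHA (2784 ± 31.4 against 1697 ± 164 CPM) was higher in T24 and LDHB (617 ± 46.9 against 1514 ± 259 CPM) in UMUC3. BNIP3, a hypoxia target, was higher in UMUC3 (148 ± 19.5 against 525 ± 37.9 CPM; -1.83 ± 0.08), and GAPDH (9106 ± 442 against 9587 ± 279.5 CPM) and ENO1 (6306 ± 443 against 6838 ± 565 CPM) were not called. Of 26 cholesterol synthesis genes 9 were called higher in T24 and 2 in UMUC3 (median 0.50). TM7SF2, a sterol reductase, was higher in T24 (16.1 ± 4.75 against 4.75 ± 0.915 CPM; not called without T24 knockdown 1, with adjusted p values up to 0.0534 over the 6 fits that left out a library). CYP51A1, the lanosterol demethylase, was higher in UMUC3 (149 ± 25.3 against 201 ± 9.08 CPM; not called without T24 knockdown 1, T24 knockdown 2, UMUC3 knockdown 1 or UMUC3 knockdown 2, with adjusted p values up to 0.107 over the 6 fits that left out a library). Of 25 serine, one-carbon and amino acid genes 5 were called higher in T24 and 4 in UMUC3, beside 18.8% and 16.5% of all tested genes. Among the 7 composition-stable ones the calls were 1 and 3, and the median turned from 0.23 to -0.31. GLUL, glutamine synthetase, stood at 121 ± 30.1 against 26.5 ± 3.63 CPM (2.17 ± 0.13; uncertain) and MTHFD2, a mitochondrial folate enzyme, at 42.7 ± 13.7 against 164 ± 31.0 CPM (-1.98 ± 0.29).

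Markers of other cell types were mostly near 0. Of 19 listed immune genes 8 were tested, with 2 called in each direction, and PTPRC, CD2 and LYZ did not reach the filter. The summed level was 249 to 302 CPM in T24 and 32.9 to 56.4 CPM in UMUC3. LAPTM5, a lysosomal protein of blood cells, made up most of the T24 sum (239, 294 and 291 CPM in T24 and 0.519, 0.321 and 0.0657 CPM in UMUC3; 9.91 ± 0.72 (SE; edgeR adjusted p = 0.00119); 9.36 to 10.57 with 1 library left out, over 1.5 times away without T24 control or UMUC3 control). CD68, which also marks lysosomes, made up most of the UMUC3 sum (4.80 ± 0.52 against 44.5 ± 14.2 CPM; -3.16 ± 0.20). Of 14 endothelial and mural genes 11 were tested. Among these 2 were called higher in T24 and 1 in UMUC3, beside 18.8% and 16.5% of all tested genes. The sums of the list were 97.5 to 105 CPM in T24 and 15.4 to 25.5 CPM in UMUC3. CDH5, the cadherin of endothelial cells, stood at 75.5, 64.5 and 67.3 CPM in T24 and 0 counts in every UMUC3 library (at least 1325-fold). PECAM1 (0.606 ± 0.245 against 0.631 ± 0.402 CPM) and VWF (0.303 ± 0.175 against 0.0537 ± 0.093 CPM) were under 1 CPM on average in both lines. In the list of blood, liver, neuron, muscle and pigment markers 7 of 18 were tested and 2 were called higher in UMUC3, SYP and SNAP25, both genes of synaptic vesicle release. SYP stood at 0.14 ± 0.243 against 10.2 ± 6.45 CPM (not called without T24 knockdown 1 or T24 knockdown 2, with adjusted p values up to 0.0689 over the 6 fits that left out a library) and SNAP25 at 0.645 ± 0.582 against 7.07 ± 1.498 CPM. The list had sums of 102 to 169 CPM in T24 and 115 to 312 CPM in UMUC3, mostly TUBB3.

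Of the genes in the series' title, PTK2, which encodes focal adhesion kinase, was higher in UMUC3 (45.9, 67.2 and 63.0 CPM in T24 and 124, 161 and 393 CPM in UMUC3; -1.87 ± 0.37 (SE; edgeR adjusted p = 0.0167)). PABPC1, a poly(A)-binding protein, was too (751 ± 50.4 against 1719 ± 238 CPM; -1.19 ± 0.12 (SE; edgeR adjusted p = 0.00278)). SETDB1, a histone methyltransferase, was not called (26.3 ± 6.74 against 18.6 ± 2.81 CPM; 0.5 ± 0.26; edgeR adjusted p = 0.196). All 3 are uncertain, since up to 0.70 of the PTK2 counts changed transcript between UMUC3 libraries. PTK2 was not called without T24 knockdown 1 or T24 knockdown 2, with adjusted p values up to 0.0663 over the 6 fits that left out a library. Reads of the circle may be among the PTK2 counts, which therefore give no check of the knockdown.

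Differences were unevenly spread over the chromosomes. Among 14409 genes with a mean of at least 1 CPM, 23.1% were called higher in T24 and 19.8% in UMUC3, with a median log2 difference of 0.03. On chromosome 15, 41.0% of 481 genes were called higher in T24 and 10.2% in UMUC3 (median 0.65), and on chromosome 11, 38.6% of 814 and 10.4% (median 0.54). On chromosome 10 the shares were 13.1% of 578 genes and 30.6% (median -0.45), and on chromosome 6, 14.2% of 725 and 33.1% (median -0.37). Chromosomes 22 (median 0.36) and 8 (median -0.33) came next. In windows of 10 Mb with at least 20 such genes, the highest medians were on chromosome 15 from 90000001 to 100000000 (1.29, with 23 of 36 genes called higher in T24 and 0 in UMUC3), chromosome 5 from 50000001 to 60000000 (1.20) and chromosome 15 from 70000001 to 80000000 (1.00), which holds ETFA. The lowest were on chromosome 6 from 100000001 to 110000000 (-0.92, with 0 of 34 genes called higher in T24 and 20 in UMUC3), from 140000001 to 150000000 (-0.91) and from 110000001 to 120000000 (-0.88). Neighbouring genes are not independent of each other, and copy number was not tested.

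**Figure D5:**
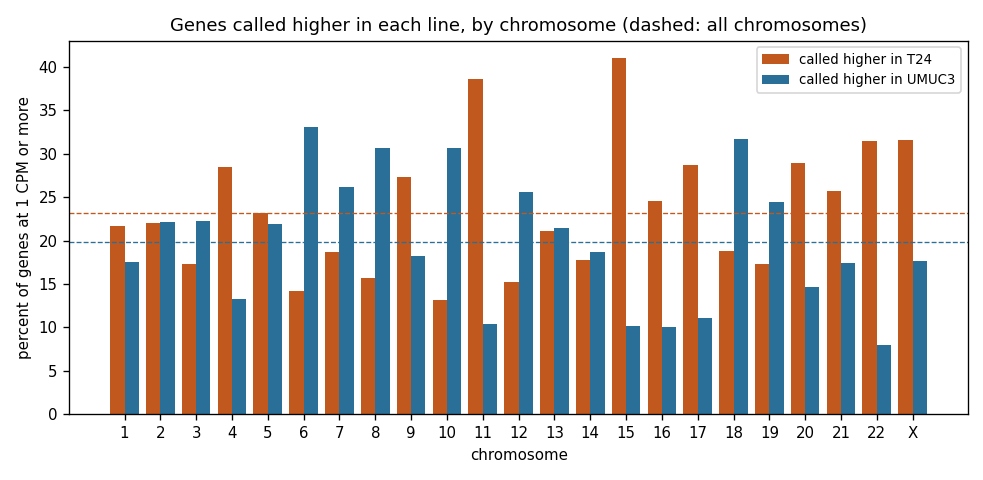
Percent of genes with a mean of at least 1 CPM on each chromosome called higher in T24 or in UMUC3, with dashed lines at the shares over all chromosomes, 23.1% and 19.8%. Chromosome 15 has the highest share called in T24 (41.0%) and chromosome 6 the highest called in UMUC3 (33.1%).

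For 5 genes (0.0241% of those tested) the distance between the lines differed between control and knockdown libraries by edgeR, in a fit with 1 control library per line and 2 residual degrees of freedom, and 4 of them are described. The difference of the knockdown changes, T24 minus UMUC3 on the log2 scale, was 4.61 ± 0.10 (SE; edgeR adjusted p = 0.0259) for JUN, an AP-1 factor, which stood at 7.89, 272 and 265 CPM in T24 and 784, 1099 and 1085 CPM in UMUC3. It was -5.57 ± 0.18 (SE; edgeR adjusted p = 0.0377) for AARS, the alanyl-tRNA synthetase (129.8, 27.5 and 27.5 CPM in T24 and 24.2, 257 and 230.2 CPM in UMUC3). In AARS the T24 control lay above the UMUC3 control and the knockdown libraries in the opposite order, so AARS did not separate the lines. LTBP2, a matrix protein, stood at 43.1, 626 and 629 CPM in T24 and 3.13, 1.43 and 1.36 CPM in UMUC3 (5.03 ± 0.12 (SE; edgeR adjusted p = 0.0259); uncertain). DAG1, dystroglycan, stood at 344, 374 and 366 CPM in T24 and 11.6, 271 and 280.4 CPM in UMUC3 (-4.47 ± 0.11 (SE; edgeR adjusted p = 0.0259); uncertain). DESeq2 called 1120 genes in this comparison and edgeR over composition-stable genes 120.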

How the data were processed

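RNA was measured by sequencing in 6 libraries, 3 of T24 and 3 of UMUC3. The authors deposited raw read counts per transcript, and the submitters' processing notes name FastQC 0.11.5, HISAT2 2.1.0, StringTie 1.3.3b and hg38 without role or order. Strand use in counting and the RNA selection were not given in the sources used here. Of 136953 transcripts, 15038 without a gene were left out, and the others were summed to 30717 genes, 30663 of them with coordinates in GENCODE release 29 (GRCh38). The knockdown libraries of a line differed by a chi-square per degree of freedom of 124.4 in T24 and 120.6 in UMUC3, so each of the 6 libraries entered as its own sample.

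The test took genes that reached 10 counts in 2 or more libraries and 30 counts in total. It was edgeR 4.0.16 in R 4.3.3 with TMM factors, the robust quasi-likelihood F test, terms for line and for knockdown (which left 3 residual degrees of freedom), and Benjamini-Hochberg adjustment at 0.05. DESeq2 1.42.0, limma 3.58.1 (voom), other filters, scalings and designs, and fits without each library were the alternatives. TPM was computed from GENCODE transcript lengths over named transcripts. A lower bound on a fold sets the silent line to 3 counts per library. On simulated data with all 20721 genes, 100 were changed by a log2 of 1, 100 by 2, and 20521 were unchanged. The line difference called 3%, 48% and 0.0487% of these. The adjustment depends on how many genes change, and in the measured libraries 35.3% were called. The simulated shares therefore do not give the power of the comparison.

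The comparison, its gene lists and its rules were chosen with earlier results of these data known. The rule for names took the 15 highest and 15 lowest differences among called and separated genes with at least 10 CPM in each library of the higher line, up to 4 called and separated members of each list and direction with at least 5 CPM there, the genes of the series' title, and the longest run of on-off genes in each direction. Other list members, and the neighbours of silent genes, were named after their values were seen. The promoter sequences are from RefSeq. XIST and genes of the Y chromosome were left out, and some genes that the rules chose are not reported here.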

Additional observations from a re-analysis of the deposited data

Results flagged for a closer look

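For the 4 genes described, the effect of the knockdown differed between the lines by the test of that difference in edgeR. The difference of the log2 changes, T24 minus UMUC3, was 4.61 for JUN, 5.03 for LTBP2, -4.47 for DAG1 and -5.57 for AARS. Each line has 1 control library. The T24 control was the lowest T24 library for JUN and LTBP2, and the UMUC3 control the lowest UMUC3 library for DAG1. For AARS the T24 control was the highest T24 library and the UMUC3 control the lowest UMUC3 library.

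Transcripts that carry no gene name were outside every comparison. They held 14.86% of the counts in the T24 control against 15.74% and 16.1% in T24 knockdown 1 and 2, and 15.42% in the UMUC3 control against 15.43% and 15.84% in UMUC3 knockdown 1 and 2. In both lines the knockdown libraries were above the control, and the difference was the smallest in UMUC3 knockdown 1. What these transcripts are was not tested.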

How the results depend on the processing

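Scaling, filters, voom, DESeq2 and other designs left the numbers of genes called within 1.5 times of the main ones, with 51.69 to 54.01% of calls higher in T24 under scalings and filters. Restrictions moved them: composition-stable genes, fewer genes tested, gave 2250 and 1963 calls, and a test against a log2 difference of 1 gave 1744 and 1151 (60.24% higher in T24). Leaving out 1 library gave 2471 to 3546 calls higher in T24 and 1963 to 3030 higher in UMUC3. Numbers in the titles pair no more than 2 knockdown libraries of each line, and their deviations did not go together (r = 0.015 by titles, -0.015 by column names). With the number as a replicate block the calls were 2812 and 2372 by titles and 2856 and 2327 by column names. With the block by titles the listed genes called higher in T24 and in UMUC3 were 4 and 2 for gemcitabine metabolism, 11 and 2 for the luminal list, 3 and 4 for the serine list, 15 and 1 for the interferon list, 20 and 2 for protocadherins and 7 and 5 for cell cycle gatekeepers. Among composition-stable genes the median of the gatekeepers turned from -0.04 to 0.67. The difference of the knockdown changes was called for 120 composition-stable genes and for 1120 genes by DESeq2; the cause was not tested. Limits chosen after seeing the data moved the on-off genes: 699 on in T24 and 444 on in UMUC3 with off under 0.5 CPM, and 236 and 137 among composition-stable genes. Of 234 genes named by rule, 170 kept their result under every alternative that held them, 64 lost their call under at least 1, and 0 reversed. The fit over composition-stable genes held 116 of the 234. SETDB1, not called in the main fit, is counted among the 170. Of 85 further genes, 59 stayed on their side of the threshold, 9 lost a call and 17 gained one, and none reversed. Directions were not compared for genes not called.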
